A study of Mus musculus with 14 samples.

Results

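The 10 genes described here encode the main proteins of the basement membrane that endoderm secretes: the laminin chains Lama1, Lamb1 and Lamc1, the collagen IV chains Col4a1 and Col4a2, the nidogens Nid1 and Nid2, the proteoglycan perlecan (Hspg2), the collagen-binding glycoprotein Sparc and fibronectin (Fn1). They were chosen by name, with earlier results of these data known, from the 55416 genes of a count table of 14 RNA sequencing libraries. All 10 passed the filter on low counts, which left 18430 tested genes. The libraries came from 3 mouse stem cell lines of hybrid Mus molossinus and Mus musculus background, each treated with STM2457, an inhibitor of the RNA methyltransferase METTL3, at 50 µM for 12 h, or with DMSO, which the labels call the control. The 6 groups were XEN (extraembryonic endoderm stem cells, genotype WT, DMEM with FBS) with STM2457 and with DMSO, 3 libraries each; TSC (labelled trophoectoderm stem cells, genotype WT, MEF-conditioned RPMI with FBS and Fgf4) with STM2457 and with DMSO, 2 libraries each; and EpiSC (epiblast stem cells, genotype XmolXmus-ΔTsix, knock out DMEM with serum replacement, Fgf2 and Activin A) with STM2457 and with DMSO, 2 libraries each. Cells were plated the day before treatment, and total RNA was taken with TRIzol. The lines differ in medium and, for EpiSC, in genotype, and these cannot be told apart from cell type. The same would hold for any difference in library preparation between XEN and the other lines. Library depth and the share of mitochondrial ribosomal RNA, given below, separated every XEN library from the rest.

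A basement membrane is a thin sheet of extracellular matrix that cells lay down beneath themselves. Laminin trimers, built of an alpha, a beta and a gamma chain, assemble into a sheet on the cell surface, collagen IV trimers form a covalent network, and nidogens and perlecan connect the networks. XEN cells derive from the primitive endoderm, whose parietal descendants secrete Reichert's membrane, the unusually thick basement membrane of the rodent yolk sac. METTL3 deposits N6-methyladenosine (m6A) on RNA, a mark that can shorten the life of a transcript.

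The genes are spread over the genome. Lama1 (ENSMUSG00000032796) is on chromosome 17, Lamb1 (ENSMUSG00000002900) on 12, Lamc1 (ENSMUSG00000026478) and Fn1 (ENSMUSG00000026193) on 1, Nid1 (ENSMUSG00000005397) on 13, Nid2 (ENSMUSG00000021806) on 14, Hspg2 (ENSMUSG00000028763) on 4 and Sparc (ENSMUSG00000018593) on 11. Col4a1 (ENSMUSG00000031502) and Col4a2 (ENSMUSG00000031503) are neighbours on chromosome 8, transcribed in opposite directions from start sites 21 bases apart. Their promoter windows (RefSeq, build GRCm38.p6, 250 bases before to 50 bases after the start) are shown because they overlap. The Col4a1 window is chr8:11312777-11313076 on the minus strand and the Col4a2 window chr8:11312555-11312854 on the plus strand, each written 5′ to 3′ in its own direction of transcription. Capitals mark the 78 bases that the windows share, which read as reverse complements.
Col4a1: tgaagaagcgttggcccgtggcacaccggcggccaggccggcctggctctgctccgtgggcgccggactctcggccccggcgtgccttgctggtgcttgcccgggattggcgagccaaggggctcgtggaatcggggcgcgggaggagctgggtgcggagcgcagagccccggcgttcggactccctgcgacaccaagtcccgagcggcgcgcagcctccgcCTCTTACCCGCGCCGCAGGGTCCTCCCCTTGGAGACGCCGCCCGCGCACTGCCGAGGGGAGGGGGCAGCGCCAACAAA
Col4a2: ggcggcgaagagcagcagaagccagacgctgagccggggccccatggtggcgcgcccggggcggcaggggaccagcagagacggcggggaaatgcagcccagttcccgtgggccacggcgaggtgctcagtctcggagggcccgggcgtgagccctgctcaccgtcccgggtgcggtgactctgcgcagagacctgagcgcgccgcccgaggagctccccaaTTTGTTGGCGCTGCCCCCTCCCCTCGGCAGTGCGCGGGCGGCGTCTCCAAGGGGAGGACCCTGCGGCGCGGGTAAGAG
The windows held 74.0% (Col4a1) and 73.7% (Col4a2) G or C. Windows were found for 6 of the 10 genes, these chains and Hspg2, Sparc, Lamb1 and Nid1. On either strand, the GC box (GGGCGG) was present in 5 of the 6, with 5 matches in Hspg2, 3 in Col4a2, 2 in Lamb1, 1 each in Col4a1 and Nid1 and 0 in Sparc, and in 35.7% of all 32851 windows. The match in Col4a1 lies in the shared bases and is the same site as 1 of the 3 in Col4a2. It is thus counted for both windows, which are not independent. For GATA factors 4 hexamers were searched. They were AGATAA, its form with G at the end (AGATAG), and the hexamers that begin with T in place of A, namely TGATAA as well as the form ending in G (TGATAG). None of the 6 windows held any of them, while 29.8% of all windows did. For SOX factors the hexamer ACAATA and its form ending in G (ACAATG) were in 0 of the 6 and in 19.7% of all windows. The letters TATAAA, the TATA box, were in 0 of the 6 and in 13.6% of all windows. Matches that overlap, within a motif or between motifs, each counted.

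In XEN cells the laminin chains, the collagen IV chains and Sparc were among the most abundant transcripts of the genome. By CPM per kb of exon (CPM are counts relative to the scaled library total, here divided by exon length), Col4a1 ranked 2, Sparc 3, Col4a2 5, Lama1 6, Lamc1 7 and Lamb1 13 of 14317 protein-coding nuclear genes, with the same ranks with STM2457 and with DMSO. Exon length joins all annotated exons of a gene and can far exceed its longest transcript (9917 against 5784 bases for Lamb1, 3788 against 2300 for Sparc). The ranks depend on this length. The nidogens stood lower, Nid1 at 124 with STM2457 and 139 with DMSO, and Nid2 at 212 with STM2457 and 202 with DMSO. Hspg2 ranked 898 with STM2457 and 701 with DMSO, and Fn1 8581 with STM2457 and 7599 with DMSO. The 10 genes together took 6.25% to 7.51% of all counts in XEN libraries, 0.135% to 0.144% in TSC libraries and 0.330% to 0.352% in EpiSC libraries. RNA was taken from whole cultures, so more cells of a kind and more RNA per cell cannot be told apart.

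**Figure D1:**
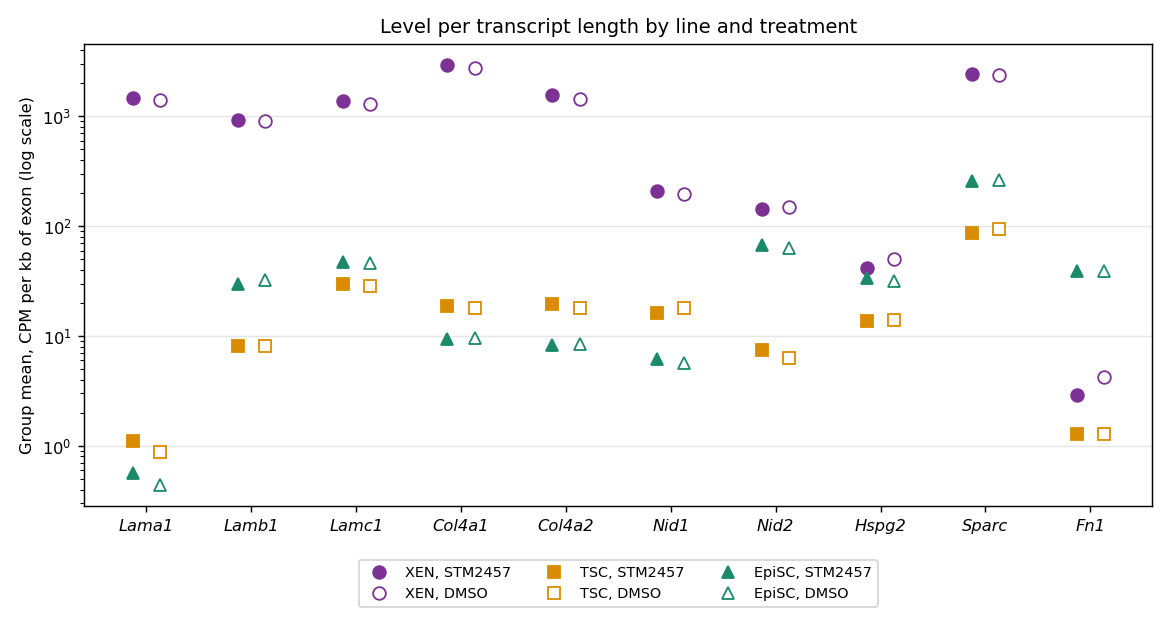
Group mean level of each of the 10 genes in CPM per kb of exon (log scale), by line (marker and colour) and treatment (filled for STM2457, open for DMSO). XEN lies above TSC and EpiSC for every gene except Fn1, which is highest in EpiSC at 39.2 with STM2457 and 38.9 with DMSO.

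Libraries held 6826496 to 10024628 counts in XEN, 17909934 to 20354242 in TSC and 18640099 to 21097380 in EpiSC. Each line carried its own markers: all 6 XEN markers, among them Gata4, Gata6 and Sox17, passed the test as higher in XEN than in TSC and than in EpiSC with DMSO, and all 5 TSC markers, among them Cdx2, were higher in TSC than in XEN. Pou5f1 averaged 558 CPM in EpiSC with STM2457 and 728 CPM with DMSO, whereas Sox2, listed as an EpiSC marker, was higher in TSC (277 CPM) than in EpiSC (80.3 CPM) with DMSO. Mitochondrial ribosomal RNA took 12.0% to 16.0% of counts in XEN libraries and at most 0.0505% in the others. Recomputed without mitochondrial and histone genes, every call of the 10 genes between lines was the same. This recomputation bears on scaling only, and cannot address a difference in how the XEN libraries were made. Such a difference would coincide with the line in every comparison of XEN with TSC or EpiSC, and its part was not tested. Nothing in the labels tells whether libraries of a group came from separate cultures, and p-values then cover only the spread among these libraries, which may be technical.

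The question of the lines is where RNA of these genes is abundant. All 10 were higher in XEN than in TSC with DMSO, where 36.0% of all tested genes were called higher and 36.5% lower, and 8 of them were at least 4-fold higher, as were 18.5% of tested genes. Against EpiSC, 9 were higher in XEN and 1, Fn1, was lower, where 35.1% of tested genes were called higher and 36.6% lower. Of these, 7 were at least 4-fold higher (17.6% of tested genes) and Fn1 was at least 4-fold lower (14.9%). The median log2 difference of the 10 was 5.10 between XEN and TSC and 4.82 between XEN and EpiSC, beside medians of 0.00 and -0.02 over all tested genes. The genes were listed as endoderm genes with earlier results of these data known. These counts and medians therefore describe the list and are no independent evidence.

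Lama1, the laminin alpha chain of the early embryo, showed the widest contrast. Its level was 13366, 14248 and 15559 CPM in XEN libraries with STM2457, against 12251, 14228 and 14707 CPM with DMSO. TSC libraries had 10.9 and 10.7 CPM with STM2457, against 8.97 and 8.04 CPM with DMSO. EpiSC libraries had 5.96 and 4.90 CPM with STM2457, against 4.77 and 3.68 CPM with DMSO. No library of XEN came near any library of the other lines, and TSC and EpiSC did not overlap. With DMSO, Lama1 was 1613-fold higher in XEN than in TSC (log2 10.66 ± 0.22 SE, adjusted p = 9.07e-16) and 3249-fold higher than in EpiSC (log2 11.67 ± 0.23, adjusted p = 9.88e-16). Only 0.434% of tested genes had a larger log2 difference between XEN and TSC, and 0.141% between XEN and EpiSC.

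Its partners in the trimer had smaller folds between lines. Lamb1, the beta chain, spanned 8579 to 10358 CPM in XEN with STM2457 and 8485 to 9506 CPM with DMSO. It spanned 79.9 to 82.5 CPM in TSC with STM2457 and 79.5 to 82.3 CPM with DMSO, and 291 to 304 CPM in EpiSC with STM2457 and 312 to 327 CPM with DMSO. The order was thus XEN, EpiSC, TSC, with no overlap between lines, and the XEN level with DMSO was 110-fold that of TSC and 27.9-fold that of EpiSC. Lamc1, the gamma chain found in most laminins, spanned 10754 to 12370 CPM in XEN with STM2457 and 10360 to 11340 CPM with DMSO. Its TSC range was 242 to 247 CPM with STM2457 and 225 to 246 CPM with DMSO, and its EpiSC range was 383 to 402 CPM with STM2457 and 374 to 388 CPM with DMSO. The differences were 45.9-fold between XEN and TSC and 28.4-fold between XEN and EpiSC with DMSO, in the same order of lines. TSC was 3.95-fold lower than EpiSC for Lamb1 and 1.61-fold lower for Lamc1 (adjusted p = 1.48e-09 and 0.000128, edgeR's quasi-likelihood test). TSC was 2.01-fold higher than EpiSC for Lama1 (adjusted p = 0.000145).

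The ratios of the laminin chains stood apart by line, which is given as a description with no test. Exon length here joins all annotated exons, 9681 bases for Lama1, 8272 for Lamc1 and 9917 for Lamb1. Their longest transcripts have 9526, 7622 and 5784 bases. Whether Lama1 or Lamc1 exceeded Lamb1 in XEN therefore depends on the length used. Per kb of exon, Lama1 stood at 1.54 to 1.68 times Lamb1 in XEN libraries with STM2457 and at 1.48 to 1.66 times with DMSO. In TSC the ratio was 0.136 to 0.137 with STM2457 and 0.100 to 0.116 with DMSO, and in EpiSC 0.0165 to 0.0209 with STM2457 and 0.0121 to 0.0149 with DMSO. Lamc1 over Lamb1 moved much less, at 1.43 to 1.59 in XEN, 3.59 to 3.63 in TSC and 1.57 to 1.58 in EpiSC with STM2457, and 1.35 to 1.54, 3.28 to 3.71 and 1.42 to 1.43 in the same lines with DMSO. Lama5, the alpha chain widespread in later epithelia, ran the other way: it averaged 90.6 ± 16.0 CPM in XEN with STM2457 and 105 ± 9.34 CPM with DMSO (SD, n = 3 each). In TSC it averaged 432 ± 9.60 CPM with STM2457 and 464 ± 65.3 CPM with DMSO, and in EpiSC 437 ± 5.83 CPM with STM2457 and 513 ± 15.8 CPM with DMSO (SD, n = 2 each). With DMSO it was lower in XEN than in TSC by 2.15 and than in EpiSC by 2.29 on the log2 scale (adjusted p = 3.40e-10 and 1.63e-10). In CPM per kb of exon, Lama5 with DMSO was at 9.21 in XEN, where Lama1 was at 1418, and at 40.7 in TSC and 45.0 in EpiSC, where Lama1 was at 0.878 and 0.436.

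**Figure D2:**
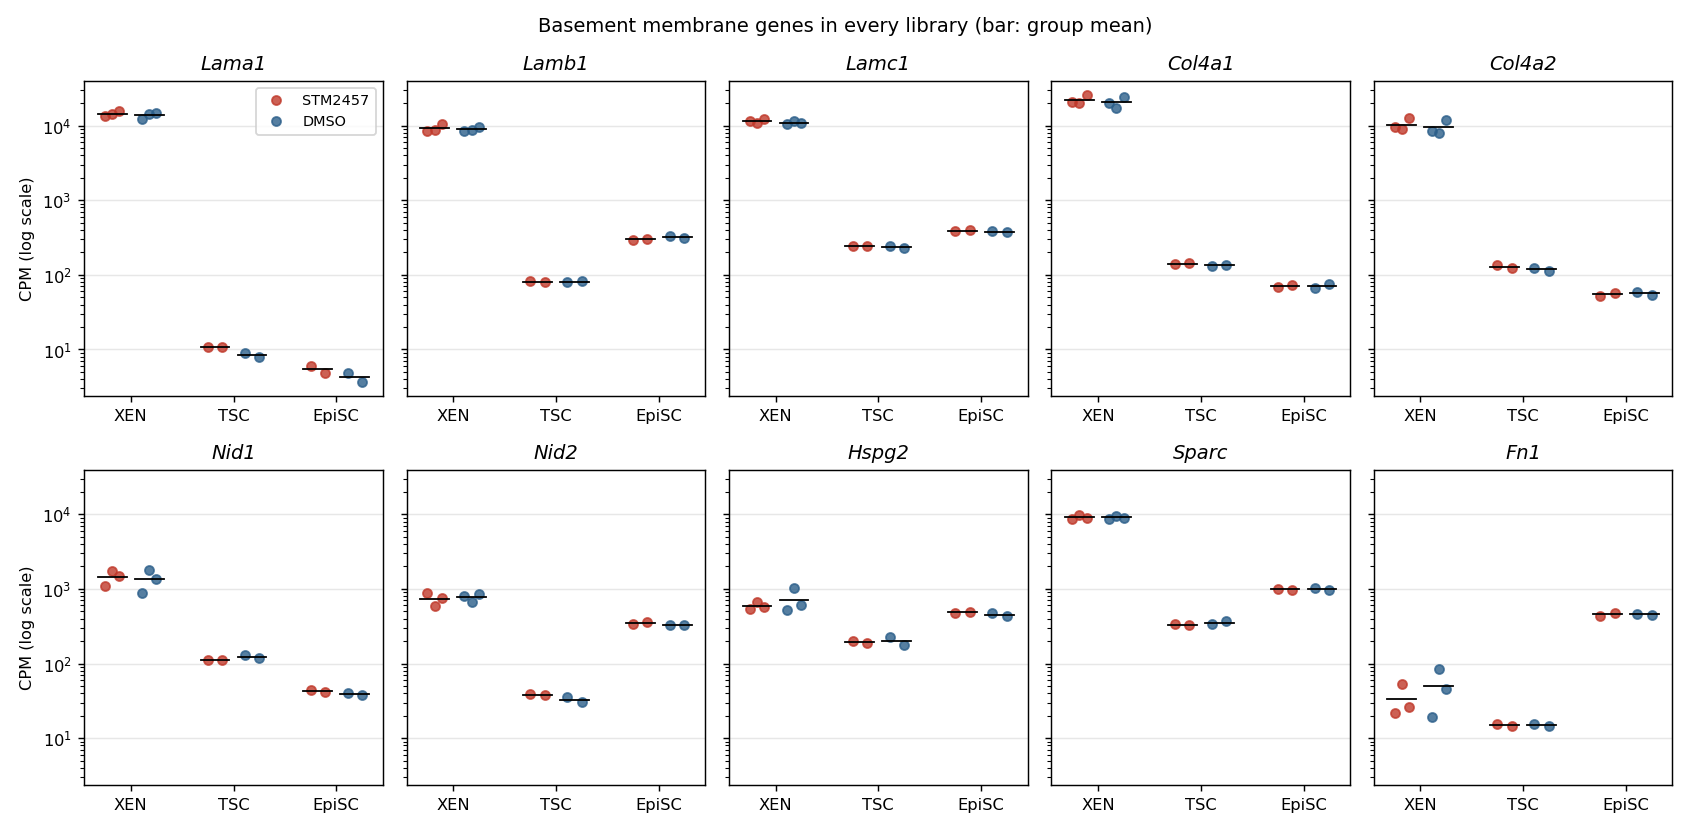
Level of each of the 10 genes in each of the 14 libraries, in CPM (log scale), by line, with STM2457 left of DMSO; points are libraries and bars group means. XEN libraries stand apart from the other lines for the laminin and collagen IV chains, Nid1 and Sparc, while within each line the STM2457 and DMSO libraries lie close together or overlap.

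Col4a1 and Col4a2, whose chains combine in the commonest collagen IV trimer, were much lower outside XEN, where Col4a1 ranked 2832 with STM2457 and 2983 with DMSO in TSC, and 5029 with STM2457 and 4855 with DMSO in EpiSC. Col4a1 was at 20423, 20013 and 25398 CPM in XEN with STM2457, against 20120, 17119 and 24261 CPM with DMSO. It was at 139 and 144 CPM in TSC with STM2457, against 133 and 134 CPM with DMSO, and at 68.5 and 72.6 CPM in EpiSC with STM2457, against 67.6 and 74.8 CPM with DMSO. Lines did not overlap, while treatments overlapped in XEN and EpiSC. Col4a2 was at 9551, 8937 and 12503 CPM in XEN with STM2457, against 8572, 7905 and 11850 CPM with DMSO. In TSC it was at 136 and 123 CPM with STM2457, against 123 and 114 CPM with DMSO, and in EpiSC at 51.9 and 58.0 CPM with STM2457, against 58.2 and 54.5 CPM with DMSO. The order of lines was XEN, TSC, EpiSC for both chains. With DMSO, XEN was 154-fold above TSC for Col4a1 (log2 7.26 ± 0.21) and 79.8-fold for Col4a2 (log2 6.32 ± 0.23), and above EpiSC by 288-fold for Col4a1 and 168-fold for Col4a2. TSC exceeded EpiSC by 1.87-fold for Col4a1 and 2.10-fold for Col4a2 (adjusted p = 0.000178 and 0.000135).

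Their ratio also stood apart in XEN, again as a description. Per kb, Col4a1 was 1.80 to 1.99 times Col4a2 in XEN libraries with STM2457 and 1.82 to 2.08 times with DMSO. The ratio lay at 0.910 to 1.04 in TSC with STM2457 and 0.959 to 1.04 with DMSO, and at 1.11 to 1.17 in EpiSC with STM2457 and 1.03 to 1.22 with DMSO. All 6 XEN libraries were thus above all 8 libraries of the other lines. Of the other collagens of basement membranes, 3 of 6 were expressed enough to be tested. Col18a1, the precursor of endostatin, averaged 0.362 CPM in XEN, 11.3 CPM in TSC and 163 CPM in EpiSC with DMSO, and Col4a5, a chain of another collagen IV trimer, 0.230, 0.0727 and 39.6 CPM in the same order. With DMSO, 1 of the 3 was lower in XEN than in TSC (36.5% of all tested genes were), and all 3 were lower in XEN than in EpiSC (36.6%).

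**Figure D3:**
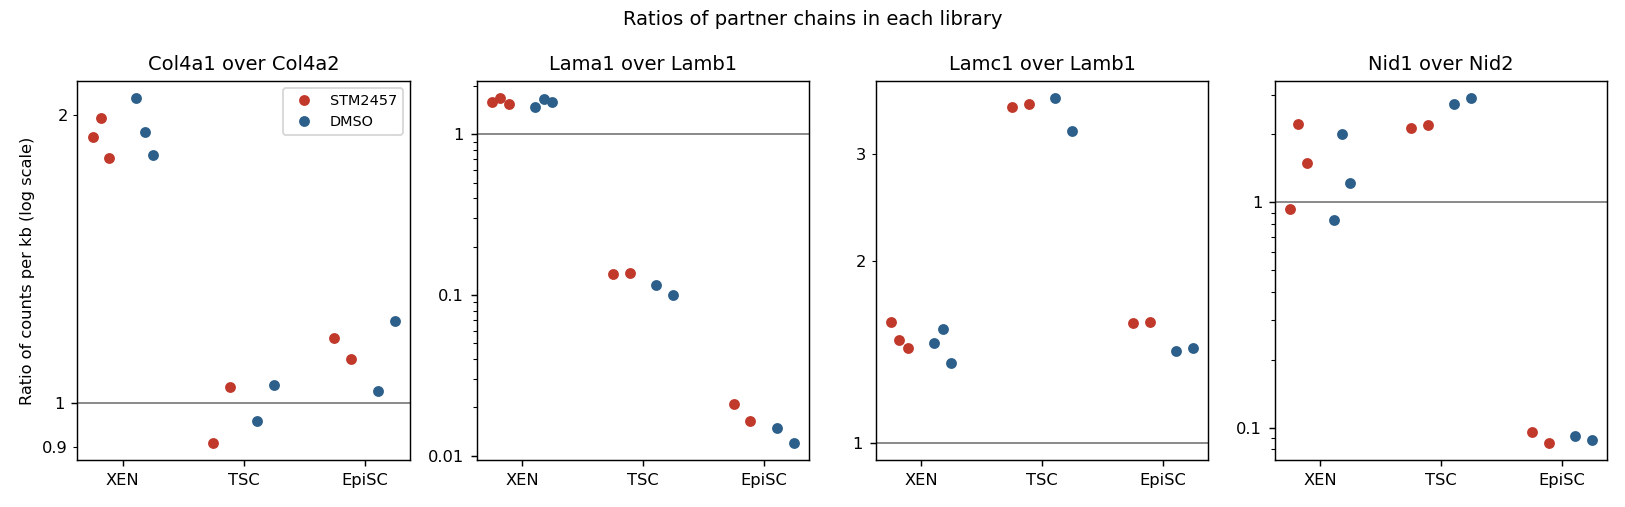
Ratio of partner chains per kb of exon in each library (log scale), by line, with STM2457 in red left of DMSO in blue. The grey line marks equal levels per kb of all annotated exons joined. Col4a1 over Col4a2 lies between 1.80 and 2.08 in XEN and below 1.22 in the others, and Lama1 over Lamb1 falls below 0.14 in TSC and EpiSC.

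The nidogens, which bind laminin and collagen IV, split by line. Nid1 stood at 1096, 1747 and 1493 CPM in XEN with STM2457, against 888, 1792 and 1378 CPM with DMSO. It stood at 111 and 112 CPM in TSC with STM2457, against 129 and 120 CPM with DMSO, and at 43.9 and 41.7 CPM in EpiSC with STM2457, against 40.2 and 38.1 CPM with DMSO. Its order was XEN, TSC, EpiSC, with 10.9-fold between XEN and TSC and 34.5-fold between XEN and EpiSC with DMSO. Nid2 stood at 873, 586 and 747 CPM in XEN with STM2457, against 798, 663 and 842 CPM with DMSO. In TSC it stood at 38.6 and 38.1 CPM with STM2457, against 35.1 and 30.8 CPM with DMSO, and in EpiSC at 343 and 362 CPM with STM2457, against 327 and 323 CPM with DMSO. EpiSC thus held the middle place, with no overlap between lines. XEN exceeded EpiSC by only 2.36-fold for Nid2 with DMSO (log2 1.24 ± 0.15, adjusted p = 1.16e-06), and TSC was 9.87-fold below EpiSC. Nid1 over Nid2 per kb was 0.936 to 2.22 in XEN, 2.14 to 2.20 in TSC and 0.0857 to 0.0955 in EpiSC with STM2457, and 0.829 to 2.01, 2.73 to 2.89 and 0.0878 to 0.0916 in the same lines with DMSO.

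Perlecan, a heparan sulfate proteoglycan, had the smallest fold of the 10 between XEN and EpiSC. Hspg2 measured 541, 667 and 569 CPM in XEN with STM2457, against 521, 1019 and 600 CPM with DMSO. It measured 203 and 190 CPM in TSC with STM2457, against 227 and 177 CPM with DMSO, and 475 and 497 CPM in EpiSC with STM2457, against 474 and 429 CPM with DMSO. All XEN libraries lay above all EpiSC libraries, narrowly, and TSC lay below both. XEN was 3.53-fold above TSC with DMSO (adjusted p = 1.48e-05) and 1.58-fold above EpiSC (log2 0.66 ± 0.23, adjusted p = 0.0191). The difference between XEN and EpiSC did not pass with STM2457 in the main fit (log2 0.29, 95% confidence interval -0.20 to 0.77, adjusted p = 0.267). It passed with scaling to ribosomal protein genes (adjusted p = 0.0282) and with a replicate block (adjusted p = 0.0286). It also passed when only the groups compared were fitted (adjusted p = 0.0323) and without XEN DMSO replicate 2 (adjusted p = 0.0296). With DMSO it did not pass when EpiSC replicate 1 (adjusted p = 0.0565) or 2 (adjusted p = 0.117) was left out. Sparc, which binds collagen IV and is a long-known product of parietal endoderm, spanned 8702 to 9790 CPM in XEN with STM2457 and 8623 to 9591 CPM with DMSO. TSC spanned 326 to 336 CPM with STM2457 and 341 to 368 CPM with DMSO, and EpiSC 974 to 1003 CPM with STM2457 and 959 to 1035 CPM with DMSO. Per kb of exon it was the highest of the 10 outside XEN, ranking 338 with STM2457 and 351 with DMSO in TSC, and 109 with STM2457 and 117 with DMSO in EpiSC. XEN was 25.5-fold above TSC and 9.08-fold above EpiSC with DMSO.

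Fibronectin was the exception. Fn1 read 21.8, 53.8 and 26.4 CPM in XEN with STM2457, against 19.4, 83.6 and 45.3 CPM with DMSO. It read 15.5 and 14.6 CPM in TSC with STM2457, against 15.3 and 14.5 CPM with DMSO. EpiSC had 437 and 478 CPM with STM2457, against 467 and 443 CPM with DMSO. EpiSC thus lay above every other library, all XEN libraries lay above all TSC libraries, and the XEN libraries spread more than 4-fold with DMSO. Fn1 was 9.23-fold lower in XEN than in EpiSC with DMSO (log2 -3.21 ± 0.51, adjusted p = 0.000341) and 30.5-fold lower in TSC than in EpiSC (log2 -4.93 ± 0.63, adjusted p = 0.000131). XEN exceeded TSC by 3.31-fold with DMSO (log2 1.73 ± 0.55, adjusted p = 0.0191). With STM2457 the difference was 2.25-fold (log2 1.17, 95% confidence interval -0.07 to 2.41) and did not pass in the main fit (adjusted p = 0.0824). It passed in DESeq2 (adjusted p = 0.0440), with a replicate block, without the filter on low counts and with scaling to ribosomal protein genes. It also passed when only the groups compared were fitted and without XEN DMSO replicate 1 or 2. The call with DMSO was lost without XEN replicate 2 (log2 1.15, adjusted p = 0.0589), TSC replicate 1 (adjusted p = 0.0830) or TSC replicate 2 (adjusted p = 0.0937). The 8 embryonic fibroblast markers, of which 6 were tested, summed to 5.10 to 8.68 CPM with STM2457 and 5.00 to 8.91 CPM with DMSO in XEN, and to 17.9 to 20.1 CPM with STM2457 and 14.6 to 15.5 CPM with DMSO in TSC. Their sum was highest in EpiSC, at 46.4 to 48.4 CPM with STM2457 and 53.1 to 59.6 CPM with DMSO, led by Col1a1 and Col1a2. The markers did not share this order. Pdgfrb averaged 15.3 CPM in TSC, 6.26 in XEN and 4.79 in EpiSC with STM2457, and 11.8, 6.52 and 4.67 CPM with DMSO. Thy1 averaged 1.97 CPM in TSC and 1.45 in EpiSC with STM2457, and 1.49 and 1.39 CPM with DMSO. With both treatments, Col3a1, Lum and Thy1 were at 0 in XEN, and Col3a1, Dcn and Lum in TSC, while in EpiSC only Lum was at 0, and only with DMSO. Their part in the Fn1 level was not tested.

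TSC and EpiSC shared no common order over the 10 genes. With DMSO, 4 were higher in TSC (Lama1, Col4a1, Col4a2 and Nid1) and 6 lower (Lamb1, Lamc1, Nid2, Hspg2, Sparc and Fn1), beside 27.0% of tested genes higher and 27.4% lower. With STM2457 the counts of calls were 9 higher and 0 lower between XEN and TSC (72.4% of tested genes called in either direction), 8 higher and 1 lower between XEN and EpiSC (72.3%), and 4 higher and 6 lower between TSC and EpiSC (54.2%). Of these libraries none entered the DMSO means.

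In the main fit, which had no replicate block, no member passed the test for an effect of STM2457 in any line. Fn1 passed in XEN with the block or without the filter on low counts. Lama1 and Nid2 passed in TSC when only its libraries were fitted. In XEN 0 of the 10 were called, with 4.15% of tested genes called, in TSC 0, with 0.966%, and in EpiSC 0, with 1.68%, by edgeR's quasi-likelihood test. The unadjusted p was below 0.05 for 0 of the 10 in each line, and DESeq2 called 0 in each. For unadjusted p and for DESeq2, here and below, no share over all tested genes is given, so nothing is read from those counts. The median log2 change of the 10 was 0.06 in XEN, 0.03 in TSC and 0.03 in EpiSC, with 0.00 over all tested genes. In XEN, the estimate for Lama1 was a log2 of 0.07 (95% confidence interval -0.18 to 0.32), for Lamb1 0.05 (-0.17 to 0.26), for Lamc1 0.09 (-0.12 to 0.30) and for Sparc 0.01 (-0.19 to 0.22). Col4a1 stood at 0.10 (-0.18 to 0.38) and Col4a2 at 0.13 (-0.19 to 0.45). Nid2 stood at -0.06 (-0.33 to 0.21). The widest intervals were those of Nid1 at 0.10 (-0.36 to 0.55), Hspg2 at -0.27 (-0.70 to 0.17) and Fn1 at -0.54 (-1.63 to 0.55). With the replicate block, which pairs the XEN libraries by number, the Fn1 call changed: it passed as lower with STM2457 (log2 -0.48, adjusted p = 0.0149).

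**Figure D4:**
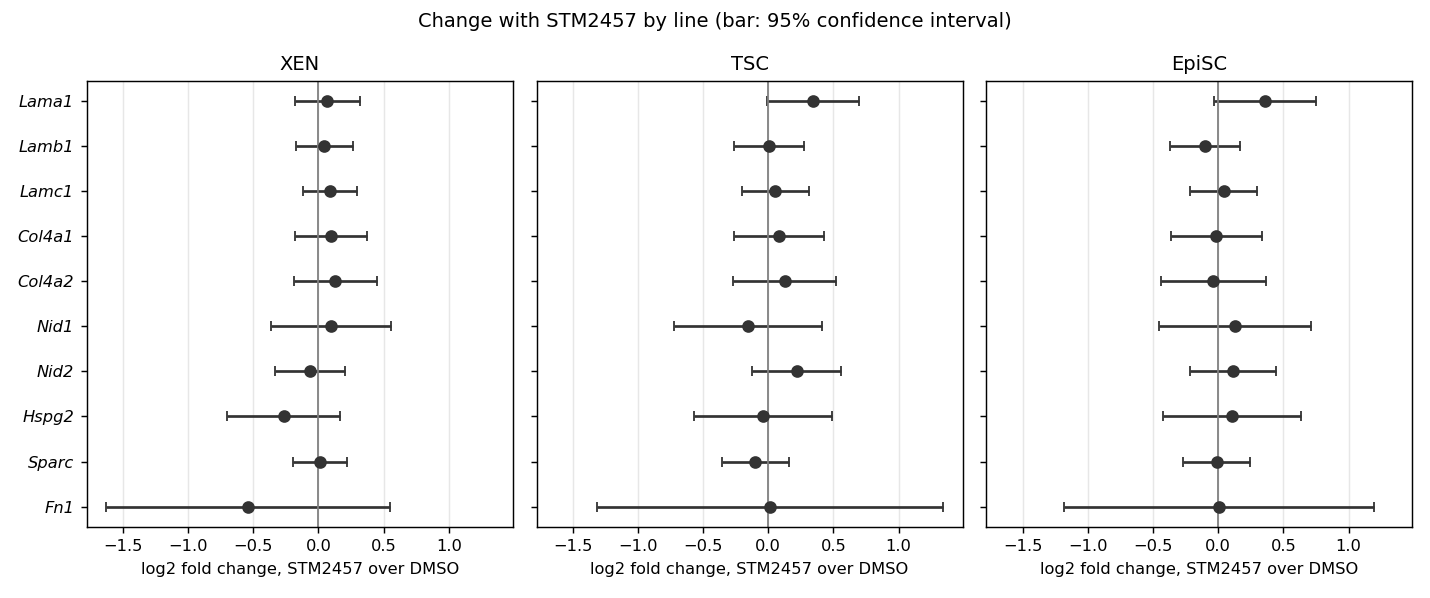
Log2 fold change of each gene with STM2457 over DMSO in XEN, TSC and EpiSC; points are estimates and bars 95% confidence intervals. Every interval includes 0; Fn1 has the widest, from -1.63 to 0.55 in XEN, and Lama1 in TSC and EpiSC lies furthest above 0.

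In TSC the estimates ran from a log2 of -0.15 for Nid1 (-0.72 to 0.41) to 0.34 for Lama1 (-0.01 to 0.70, adjusted p = 0.388), with Nid2 at 0.22 (-0.13 to 0.56). In EpiSC they ran from -0.10 for Lamb1 (-0.37 to 0.16) to 0.36 for Lama1 (-0.03 to 0.75, adjusted p = 0.384). The TSC and EpiSC libraries with STM2457 lay above those with DMSO for Lama1, on 455 counts with STM2457 and 345 with DMSO in TSC, and 237 with STM2457 and 174 with DMSO in EpiSC. Averaged over the 3 lines, Lama1 had a 1.20-fold higher level with STM2457 (log2 0.26 ± 0.09, 0.06 to 0.45), with an unadjusted p of 0.0125 and an adjusted p of 0.0765. In that average 0 of the 10 were called, beside 13.4% of tested genes, and only Lama1 had an unadjusted p under 0.05. With replicate numbers as a block, Lama1 passed (log2 0.26, adjusted p = 0.0134), as it did in DESeq2 (adjusted p = 0.0250). Same-numbered XEN libraries tended to deviate together, though the labels name no pairs. No difference of the effect between lines was detectable. The interaction was called for 0 of 10 genes between XEN and TSC (0.00543% of tested genes called), XEN and EpiSC (0.0109%) and TSC and EpiSC (0.00543%). For each of these interactions the unadjusted p was below 0.05 for 0 of the 10, and DESeq2 called 0. These interactions, the line effects and their average use the same libraries, so they are not separate evidence.

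Within each library the ratio of partner chains is free of library scaling. The ratio of Lama1 to Lamb1 counts was higher with STM2457 by a log2 of 0.28 averaged over lines (1.21-fold, exact two-sided permutation test within lines over 720 assignments, p = 0.0167, adjusted over the 4 ratios p = 0.0667). All TSC and EpiSC libraries with STM2457 exceeded those with DMSO, and XEN libraries overlapped. Lamc1 over Lamb1 differed by 0.08 (permutation p = 0.0667, adjusted p = 0.133), Col4a1 over Col4a2 by -0.02 (permutation p = 0.772) and Nid1 over Nid2 by -0.05 (permutation p = 0.742). The smallest p that this test can give is 0.00278.

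Replicates of XEN varied far more for some members than for others, and often alike in the treatment arms. Library 2 lay above its group mean for Fn1 by 0.77 with STM2457 and 0.99 with DMSO on the log2 scale, for Hspg2 by 0.18 with STM2457 and 0.58 with DMSO, and for Nid1 by 0.30 with STM2457 and 0.46 with DMSO. Library 1 lay below for Fn1, by -0.53 with STM2457 and -1.10 with DMSO, and for Nid1, by -0.37 with STM2457 and -0.55 with DMSO. Library 3 was the highest for Col4a1 (0.22 with STM2457 and 0.26 with DMSO) and Col4a2 (0.29 with STM2457 and 0.35 with DMSO). Nid2 was low in library 2, by -0.31 with STM2457 and -0.20 with DMSO. In these cases the same-numbered libraries deviated together, which the unblocked comparison counts as spread. Not all did: Fn1 in library 3 lay at -0.25 with STM2457 and 0.11 with DMSO. Lamc1 lay at -0.09 with STM2457 and 0.07 with DMSO in library 2, and at 0.11 and -0.01 in library 3. For Fn1 in XEN the adjusted p was 0.0149 with the replicate block and 0.657 without it. Without XEN replicate 2 with DMSO the estimate was 0.04, and without XEN replicate 2 with STM2457 it was -1.04, neither called. In a fit of XEN libraries alone with the block, chosen after seeing the data, it was -0.46 (adjusted p = 0.0677).

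**Figure D5:**
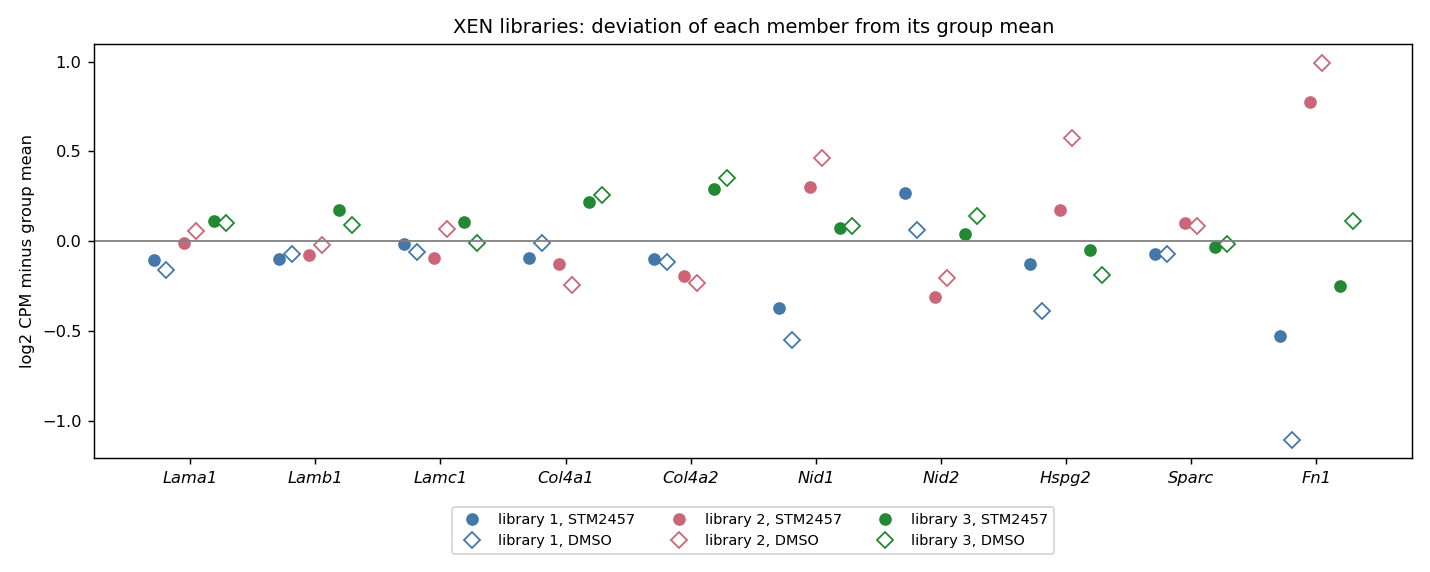
Deviation of each gene from its group mean in the 6 XEN libraries, in log2 CPM; colour gives the library number, filled points STM2457 and open points DMSO. Fn1 spans -1.10 to 0.99 with library 2 on top in both arms, whereas Lama1, Lamb1, Lamc1 and Sparc stay within 0.18 of 0.

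The transcripts of these genes are long and cut into many exons. In the longest transcript of each gene (GENCODE M21), length ran from 2300 bases for Sparc to 14187 for Hspg2, beside a median of 3386 over 14328 tested protein-coding genes. Exons ran from 10 for Sparc to 97 for Hspg2, beside a median of 8. The letters GGACT, a common form of the sequence that METTL3 methylates, occurred 2.72 times per kb in Col4a1 (18 matches), 2.17 in Col4a2 (14), 1.89 in Lama1 (18), 1.64 in Nid2 (8), 1.27 in Hspg2 (18), 1.21 in Lamb1 (7), 1.15 in Nid1 (7), 0.962 in Fn1 (8), 0.656 in Lamc1 (5) and 0.435 in Sparc (1). The median of the 10 was 1.24 and that of all genes 1.04; 2.96% of genes had more per kb than Col4a1 and 85.9% more than Sparc. A match is not a measured methylation site.

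Most listed genes that fold, modify and secrete collagen were also higher in XEN. Of 15 listed genes, all tested, 14 were higher in XEN than in TSC and 13 higher and 1 lower in XEN than in EpiSC with DMSO, with median log2 differences of 1.65 and 1.55. Over all tested genes, 36.0% were called higher in XEN than in TSC, and 35.1% higher and 36.6% lower than in EpiSC. Serpinh1, the collagen chaperone HSP47, averaged 2760 ± 346 CPM in XEN with STM2457 and 2492 ± 218 CPM with DMSO (SD, n = 3 each), and with DMSO was higher than in TSC by 4.98 and than in EpiSC by 2.75 on the log2 scale. P4hb, the beta subunit of prolyl hydroxylase, averaged 1960 ± 190 CPM with STM2457 and 2162 ± 322 CPM with DMSO in XEN, and exceeded TSC by 1.49 and EpiSC by 1.95. None of the 15 was called with STM2457 in any line. The shares of tested genes called were 4.15% in XEN, 0.966% in TSC and 1.68% in EpiSC.

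Other basement membrane genes held calls in both directions. Of 6 tested laminin chains of 8 listed, 2 were higher and 3 lower in XEN than in TSC with DMSO, and 1 higher and 5 lower than in EpiSC. The higher chain in both was Lamb2, a beta chain of later basement membranes, at 71.7 ± 3.27 CPM in XEN with STM2457 and 74.6 ± 6.33 CPM with DMSO, against group means of 38.8 CPM in TSC and 36.8 CPM in EpiSC with DMSO. Of 15 other glycoproteins and proteoglycans, 9 were higher and 4 lower in XEN than in TSC, and 7 higher and 6 lower than in EpiSC. Beside these stand 36.0% higher and 36.5% lower against TSC, and 35.1% higher and 36.6% lower against EpiSC, over all tested genes. Pxdn, the peroxidase that crosslinks collagen IV, averaged 528 ± 59.8 CPM in XEN with STM2457 and 499.5 ± 85.6 CPM with DMSO, and with DMSO exceeded TSC by 2.18 and EpiSC by 1.52 on the log2 scale. Tinagl1, a matricellular protein, was lower in XEN than in TSC by 0.90 and higher than in EpiSC by 3.15. None of these lists had a member called with STM2457 in any line. Over all tested genes, 4.15% were called in XEN, 0.966% in TSC and 1.68% in EpiSC.

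Receptors and proteases also held calls in both directions, beside the same shares over all tested genes (36.0% higher and 36.5% lower against TSC, 35.1% higher and 36.6% lower against EpiSC), and nothing is read from their counts. Of 15 tested receptors of 16 listed, 6 were higher and 6 lower in XEN than in TSC, and 6 higher and 8 lower than in EpiSC, with DMSO. Itgb1, the common beta subunit of matrix integrins, averaged 526 ± 13.2 CPM in XEN with STM2457 and 552 ± 9.18 CPM with DMSO, and Itga3, a laminin-binding subunit, 122 ± 42.3 CPM with STM2457 and 90.2 ± 25.7 CPM with DMSO. In XEN, the syndecan Sdc1 rose with STM2457, to 27.2 ± 8.69 CPM against 14.9 ± 2.97 CPM with DMSO (log2 0.87 ± 0.19, adjusted p = 0.0163). Itga1, a collagen-binding subunit, was called lower (adjusted p = 0.0324) on 0 counts with STM2457 and 7 with DMSO. Of 12 proteases and inhibitors, 6 were higher and 5 lower in XEN than in TSC, and 5 higher and 6 lower than in EpiSC. Ctsl, the lysosomal protease cathepsin L, averaged 2822 ± 551 CPM in XEN with STM2457 and 2764 ± 451 CPM with DMSO and exceeded TSC by 3.47 and EpiSC by 3.68, while Serpine2, a protease inhibitor, was lower in XEN than in TSC by 1.73 and than in EpiSC by 3.26. None of the 12 was called with STM2457 in any line. Calls with STM2457 took 4.15% of all tested genes in XEN, 0.966% in TSC and 1.68% in EpiSC.

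Markers of the descendants of primitive endoderm were mixed in XEN. Of the parietal list, Fst averaged 658 ± 183 CPM with STM2457 and 884 ± 172 CPM with DMSO, and Plat 336 ± 86.4 CPM with STM2457 and 313 ± 83.2 CPM with DMSO, but Thbd was at 1.39 CPM with STM2457 and 1.02 CPM with DMSO, and Prdm1 at 0.0868 CPM with STM2457 and 0.108 CPM with DMSO. The 5 parietal markers summed to 808 to 1302 CPM in XEN libraries with STM2457 and 1053 to 1510 CPM with DMSO. The 7 visceral markers, of which 4 were tested, summed to 148 to 272 CPM with STM2457 and 162 to 293 CPM with DMSO, led by Cubn (120 ± 65.9 CPM with STM2457 and 120 ± 81.5 CPM with DMSO) and Ttr (63.8 ± 15.7 CPM with STM2457 and 70.5 ± 16.2 CPM with DMSO). Amn averaged 0.505 CPM in XEN with STM2457 and 0.363 CPM with DMSO, and with DMSO was 21.7-fold lower in XEN than in TSC. Hnf4a averaged 18.9 CPM with STM2457 and 19.8 CPM with DMSO in XEN. Afp, Apoa1 and Apob, below the filter, had 4, 4 and 2 counts over the XEN libraries with STM2457, and 8, 5 and 4 with DMSO. No marker of either list was called with STM2457 in XEN, beside 4.15% of tested genes. Their part in the levels of the 10 genes was not tested.

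Over the 14 libraries, the tested genes most like the mean of the 10 standardized log2 levels were Fndc3a (Pearson r 0.998), Kcnq1ot1 (0.997), Aff1 (0.996), Mfge8 (0.996) and Robo2 (0.996). Kcnq1ot1 is antisense to Kcnq1, and with the strand setting of the counting unknown their reads may be mixed. The libraries fall into 3 lines, so these values mainly record the contrast between lines. Fndc3a averaged 590 CPM in XEN with STM2457 and 654 CPM with DMSO, 33.3 and 33.2 CPM in TSC with STM2457 and with DMSO, and 71.8 and 79.5 CPM in EpiSC with STM2457 and with DMSO. Robo2 averaged 171 CPM in XEN with STM2457 and 134 CPM with DMSO and was at 0 in TSC.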

How the data were processed

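RNA was sequenced from 14 libraries made with a stranded total RNA kit, per the labels. Per the submitters' processing notes, FastQC, Trim Galore, STAR and featureCounts were used with build GRCm39 (mm39); versions and the strand setting of the counting are not given in the sources used here. Counts were deposited as whole numbers for each gene and library, without normalization. Of 55416 Ensembl identifiers, 52083 had a symbol in GENCODE M21 (GRCm38), which also gave exon lengths; no coordinates were converted. All 118 listed genes matched.

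In edgeR 4.0.16 (limma 3.58.1, R 4.3.3), 6 groups were fitted in 1 model with TMM scaling, filterByExpr (minimum count 10, minimum total 15) and a robust quasi-likelihood F test, two-sided. A call needed a Benjamini-Hochberg adjusted p, over the 18430 tested genes, below 0.05. The SE was obtained from F as the estimate divided by its root. Chain ratios were tested by exact permutation. Same-numbered XEN libraries of the arms tended to deviate together (residual r 0.22, 0.38 and 0.34), so numbers may pair them, though the labels do not say so. TSC and EpiSC libraries gave no sign of pairing (r -0.003 and -0.012). No replicates were duplicates (chi-square per degree of freedom 2.25 to 26.8). Results were recomputed with DESeq2 1.42.0, other scalings, no filter, a replicate block, fits of the groups compared alone, and leaving out each library. Scripts were tested on simulated data.

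The members and lists were chosen with earlier results of these data known. The text names all members, the 2 genes of each list with the highest group mean, up to 2 with the smallest p among those called in a line, and the 5 genes most alike; lists of markers are named in part.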

Additional observations from a re-analysis of the deposited data

How the results depend on the processing

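No result changed direction among called values. For STM2457 in XEN, 0 members became 1 (Fn1) without the filter on low counts (log2 -0.55, adjusted p = 0.00173) and with the replicate block, with the pairing described above. In TSC, 0 became 2 when only its libraries were fitted (Lama1 0.35, adjusted p = 0.0454; Nid2 0.23, adjusted p = 0.0405). For the mean of the lines, 0 became 1 (Lama1) in DESeq2, without the filter (adjusted p = 0.00220) and with the block, and ranged from 0 to 1 over left-out libraries, passing without XEN DMSO replicate 2 (adjusted p = 0.0345). Ratios ranged from 0 to 2 called, with Lama1 over Lamb1 passing without XEN DMSO replicate 2 (permutation, adjusted p = 0.0444), XEN STM2457 replicate 3 (adjusted p = 0.0444) or TSC DMSO replicate 1 (adjusted p = 0.0389), where Lamc1 over Lamb1 passed too. The block changed no other call except in the STM2457 arms, where it added Fn1 between XEN and TSC and Hspg2 between XEN and EpiSC. The causes were not tested. Of 1260 member values between lines under alternatives, 1244 kept direction and call, 5 lost the call and 11 gained it; of 640 treatment values in lines, 591 kept both, 4 gained a call and 45 uncalled ones changed sign (-0.13 to 0.16).

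Over all genes, calls with STM2457 were 764 in XEN (25 to 2448 over the alternatives), 178 in TSC (3 to 4378), 309 in EpiSC (7 to 4321) and 2470 for their mean (1380 to 4722). Scaling to 80 ribosomal protein genes moved the median log2 difference by 1.07 between XEN and TSC, 0.78 between XEN and EpiSC and -0.29 between TSC and EpiSC with DMSO, and the share of calls that were higher to 80.7% from 49.7%, to 74.3% from 48.9% and to 33.4% from 49.6%; it moved the medians of STM2457 by 0.14 in TSC and 0.13 in EpiSC, and the higher share in XEN to 88.6% from 74.1%. No member of a line comparison changed direction. A fit of only the groups compared could not be made for the mean, which uses all groups. Lama1 in TSC and EpiSC, and Fn1 in XEN and TSC, rest on few counts, which limits their precision.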
